A study of Mus musculus with 9 samples.

Results

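Collagen genes were taken as every gene name in the scanner files that consists of Col, a number, the letter a and a number, which gave 40 genes read by 78 probes, out of 27962 gene names and 41174 probes that were not controls. The samples were total RNA of whole L3/L4 dorsal root ganglia (DRG), the clusters of sensory neuron cell bodies beside the spinal cord, from adult mice. Uninjured ganglia (4 arrays) were compared with ganglia taken 3 days after the sciatic nerve, which holds the axons of many of these neurons, had been cut (5 arrays). All 9 samples carry the same genotype labels, cre.neg and jun.wt, which read as no Cre and wild-type Jun. The labels do not say whether the uninjured ganglia came from the injured mice. In its nerve crush experiments the study took ganglia of the opposite, uninjured side as controls. For the arrays it names only uncrushed ganglia. Any such pairs were not used in the test. No animals are named in the labels, which give neither sex nor exact age, and the p-values therefore measure the spread between these samples. The labels give 3 days for the injured group, whereas the running text of the study gives a shorter interval. Every array set the DRG sample (Cy5) against a universal mouse reference RNA (Cy3), with no dye swap, and each level below is the log2 ratio of DRG over that reference.

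Collagens are secreted or membrane-bound proteins whose chains wind into a triple helix. Fibrillar collagens such as types I, III and V build the banded fibrils of connective tissue, including the capsule and endoneurium around nerve cells. Type IV collagen forms the sheet-like network of basement membranes, which in a ganglion surround blood vessels and the glia that wrap neurons and axons. Other classes attach to the fibrils (the FACIT group), form beaded filaments (type VI), link to basement membranes (type VII and the multiplexins) or span the cell membrane.

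The median Cy5 signal of the spots lay between 156 and 238 on the 9 arrays, and 71.0% to 78.9% of spots were well above background in Cy5. The 6 sensory neuron markers examined were present and none passed the test between the groups, with 1 (Scn10a, lower) under an unadjusted limma p of 0.05. One of them, Calca (the peptide CGRP), had a ratio of 9.31 ± 0.26 (SD, n = 4) in uninjured ganglia. The arrays had 3 different scan date entries in the file headers, and arrays that share an entry are called a slide here. No slide number was read, so slide below means a shared scan date entry and not a known physical slide. Uninjured arrays 2, 3 and 4 shared the first, uninjured array 1 shared the second with injured arrays 1, 2 and 5, and injured arrays 3 and 4 shared the third. Injury and slide could be separated only within the second slide, so a difference with slide as a term of the fit is the difference within that slide. That value sets 3 injured arrays against a single uninjured one (array 1), whose own spread is not known, and its p takes the spread from the arrays of all 3 slides. Skeletal muscle markers were raised on injured arrays 2 and 4, by a mean of 1.72 and 3.46 above the uninjured mean for 7 markers, against −0.16 to 0.23 on the other injured arrays. Without these 2 arrays 4 collagen genes were called higher and 2 lower, beside 14.4% of all genes called in either direction. Whole ganglia were measured, so fewer cells of a type and less RNA per cell cannot be told apart.

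Of the 40 collagen genes, 34 were well above background in Cy5 on all 9 arrays and 38 entered the test. Col10a1, the collagen of hypertrophic cartilage, was above background on 0 of the 9 arrays. Col12a1, a FACIT that decorates type I fibrils, was above background on 1 of 4 uninjured and 2 of 5 injured arrays, with ratios of −1.05 ± 0.17 and −0.84 ± 0.24, and was not tested either. In limma's moderated test, with p-values adjusted over all 21097 genes tested, 6 collagen genes were higher in injured ganglia and 2 were lower at an adjusted p under 0.05. These counts correspond to 21.1% of the 38, beside 25.4% of all genes called in either direction (11.4% higher and 14% lower). A share of this size is near that of the array as a whole. The 8 called genes were also those whose injured and uninjured arrays did not overlap, as was the case for 23.9% of all genes. In total 27 of the 38 log2 fold changes were above 0, and their median was 0.15, beside 0.00064 over all genes.

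**Figure D1:**
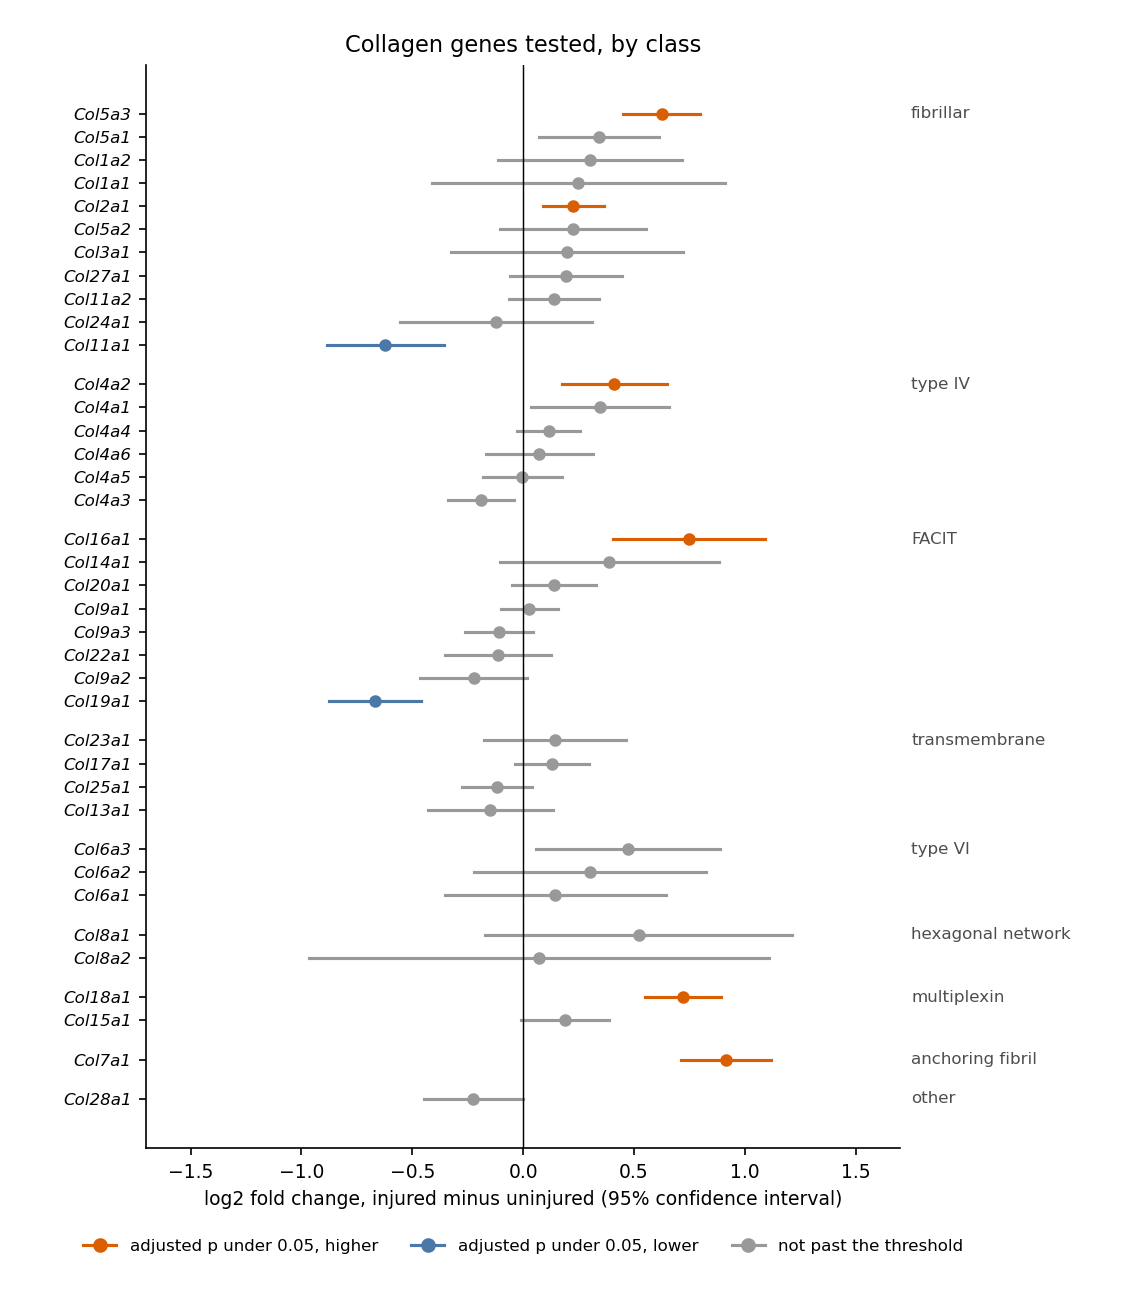
Log2 fold change of each of the 38 collagen genes tested (x axis, injured minus uninjured, in log2 units), in rows by class, where points are the limma estimates and bars their 95% confidence intervals. The 8 coloured genes passed the threshold, with Col7a1 at 0.92 the highest and Col19a1 at −0.67 the lowest, and Col1a1, Col3a1 and Col8a2 have wide intervals that include 0.

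By class, 2 of 11 fibrillar collagens were higher (Col5a3 and Col2a1) and 1 was lower (Col11a1), with a median log2 fold change of 0.23. Among the 6 type IV collagens of basement membranes, 1 was higher (Col4a2) and 0 were lower, with a median of 0.09. At an unadjusted limma p under 0.05, 2 type IV genes were higher (Col4a1 and Col4a2) and 1 was lower (Col4a3), and 3 fibrillar genes were higher (Col5a1 besides those called) and 1 was lower. Whether the 2 classes differ from each other was not tested. The anchoring fibril gene Col7a1, 1 of 2 multiplexins (Col18a1) and 1 of 8 FACIT genes tested (Col16a1) were higher, and 1 FACIT gene (Col19a1) was lower. No gene of type VI (3 genes), of the hexagonal networks (2 tested) or of the transmembrane collagens (4 genes) passed the test in limma. At an unadjusted p under 0.05 there was 1 such gene in type VI (Col6a3, higher) and 0 in the other 2 classes. The share of all genes under this unadjusted cut was not counted, here or for the lists below. It cannot be less than the 25.4% of all genes called at the adjusted threshold, so these counts alone do not set the collagens apart.

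Col7a1, which encodes the chain of the anchoring fibrils that tie the skin's basement membrane to the dermis, had the largest rise. Its probe (NM_007738, probe on chromosome 9 from 108695073 to 108695132, build mm7) read −0.15, −0.14, −0.50 and −0.27 on uninjured arrays 1 to 4 and 0.48, 0.62, 0.68, 0.63 and 0.84 on injured arrays 1 to 5. All injured arrays were above the reference and all uninjured arrays below it. The log2 fold change was 0.92 (standard error, SE, of 0.09 and an adjusted p of 6.03e-05 in limma), a 1.89-fold rise, and within the shared slide it was 0.80 (adjusted p = 0.0329).

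Col18a1 encodes a multiplexin of vascular and epithelial basement membranes whose C-terminal end is the fragment endostatin. The ratios (NM_009929, probe on chromosome 10 from 76707663 to 76707722) were −2.46, −2.46, −2.27 and −2.31 without injury and −1.78, −1.60, −1.74, −1.67 and −1.47 with it. Every array was well below the reference and the groups were far apart relative to their spread (SD 0.10 and 0.12). The rise was 0.72 (SE 0.08, limma adjusted p = 9.65e-05), or 1.65-fold, and 0.84 within the shared slide (adjusted p = 0.0127). A second probe of the gene rose by 0.59, again with no overlap (exact permutation of the group labels, two-sided p = 0.00794, the smallest these group sizes allow).

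Col16a1, a FACIT found with fibrils and near basement membranes, read −1.32, −1.40, −1.22 and −0.81 in uninjured samples and −0.51, −0.05, −0.70, −0.66 and −0.29 in injured samples (NM_028266, probe on chromosome 4 from 129543748 to 129543807). Uninjured array 4 came close to injured arrays 3 and 4 but stayed below them. Injured minus uninjured was 0.75 on the log2 scale (SE 0.16, limma adjusted p = 0.00541) and 1.04 within the slide (adjusted p = 0.0403). The second probe gave a smaller difference of 0.22 (two-sided exact permutation p = 0.0873).

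Col5a3, the least common chain of type V collagen, which sits inside heterotypic fibrils, was the called fibrillar gene with the largest rise. Levels were 2.04, 1.85, 2.05 and 2.13 on uninjured arrays and 2.48, 2.65, 2.63, 2.69 and 2.78 on injured ones (NM_016919, probe on chromosome 9 from 20639940 to 20639999). It was above the reference throughout, and the lowest injured array exceeded the highest uninjured array by more than the SD of either group (0.12 and 0.11). The log2 fold change of 0.62 (SE 0.08, limma adjusted p = 0.00025) was 0.59 within the shared slide, where it missed the threshold (adjusted p = 0.0605). Its dimmer second probe gave 0.10 (two-sided exact permutation p = 0.381).

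**Figure D2:**
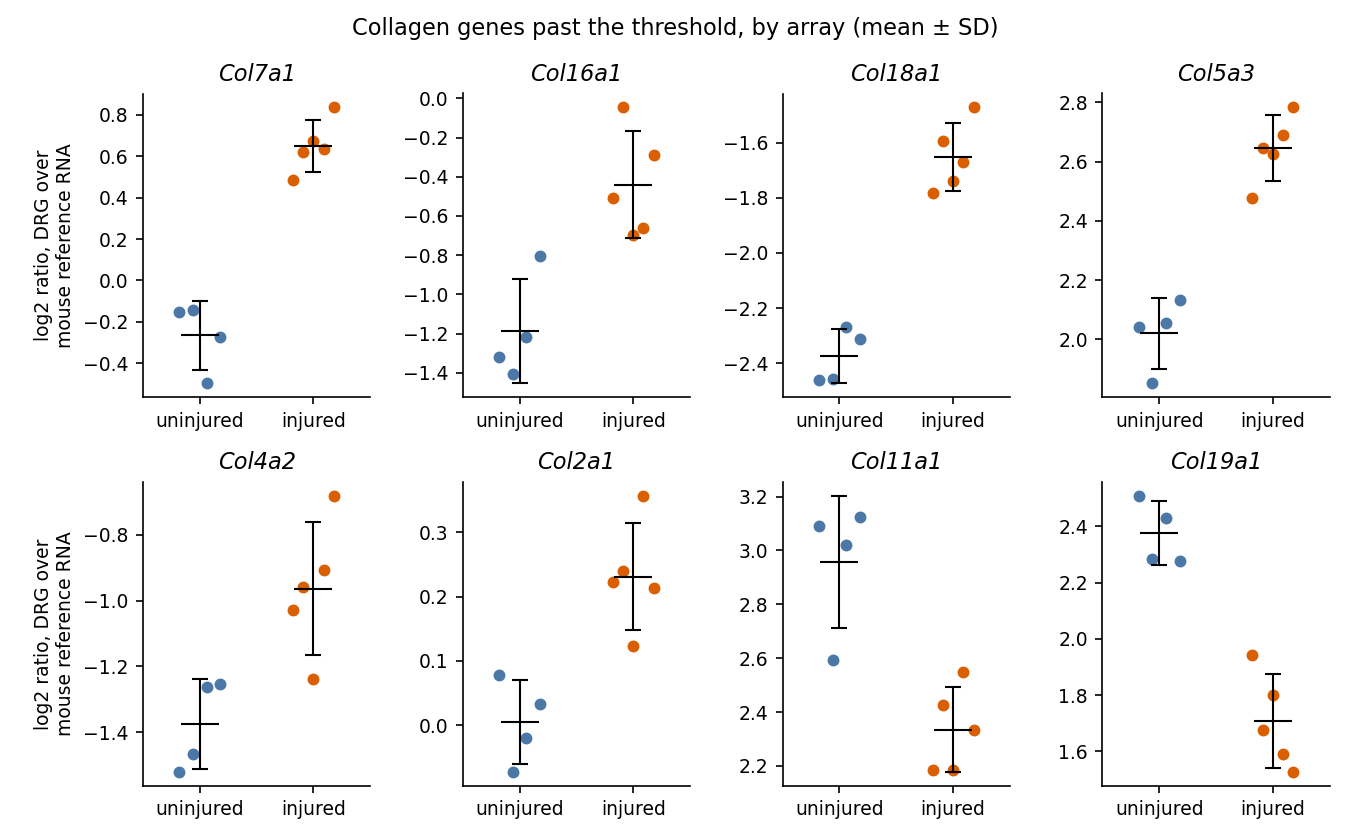
Log2 ratio of DRG over reference RNA (y axis, log2 units, with its own range in each panel) for the 8 collagen genes past the threshold, with a point per array, 4 uninjured and 5 injured, and the mean ± SD in black. In every panel the groups do not overlap, by the smallest margin in Col4a2, where uninjured array 4 at −1.25 lies just below injured array 3 at −1.24.

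Type II collagen, encoded by Col2a1 and the main fibril of cartilage, differed by less. The ratios were 0.08, −0.07, −0.02 and 0.03 in uninjured ganglia and 0.22, 0.24, 0.12, 0.36 and 0.21 in injured ganglia (NM_031163, probe on chromosome 15 from 97979257 to 97979316), near the reference in both. This was a difference of 0.23 (SE 0.06, limma adjusted p = 0.022) and 0.15 within the shared slide (adjusted p = 0.527). The gene's other probes gave 0.10 and −0.04, and the call was lost under 10 of 24 alternatives.

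The largest fall was that of Col19a1, a FACIT-related collagen known from muscle and from interneuron synapses in the brain. It read 2.51, 2.28, 2.43 and 2.28 on uninjured arrays and 1.94, 1.67, 1.80, 1.59 and 1.53 on injured arrays (NM_007733, probe on chromosome 1 from 24474611 to 24474670). All values were above the reference, with every injured array lower than every uninjured one. The change was −0.67 (SE 0.09, limma adjusted p = 0.000499) and −0.79 within the shared slide (adjusted p = 0.0329). Its 2 other probes, both near the reference, gave −0.10 and −0.04, and with Agilent's own log ratio the brightest probe was at −0.39 (adjusted p = 0.189).

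Col11a1, a minor fibrillar chain that shares fibrils with type II and type V collagen, was also lower. The probe (NM_007729, probe on chromosome 3 from 113974545 to 113974604) read 3.09, 2.59, 3.02 and 3.12 without and 2.18, 2.43, 2.18, 2.55 and 2.33 with injury. Uninjured array 2 lay nearest to the injured arrays and still above them. The fall was −0.62 (SE 0.12, limma adjusted p = 0.00343), with −0.78 within the slide (adjusted p = 0.0833). The second probe of Col11a1 fell by 0.94, also without overlap (two-sided exact permutation p = 0.00794). Col11a2, whose chain pairs with that of Col11a1 in cartilage, had a log2 fold change of 0.14 (adjusted p = 0.306).

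The sequences before the transcription start are shown for the 6 called genes whose log2 fold change exceeded 0.5 in size, the members on which the comparison turns. RefSeq promoter entries (build GRCm38.p6) matched 32 of the 40 genes, with 35 promoters, because some genes have more than 1 start. The 250 bases before the start were searched on both strands for CCAAT, for the GC box GGGCGG, for the AP-1 element TGANTCA bound by Jun and Fos, and for the TATA box letters TATAAA. No match of a motif overlapped that of another in the sequences shown. Matches are in capitals, on either strand, 5′ to 3′ along the gene.
Col7a1, chr9:108953336-108953585, plus strand: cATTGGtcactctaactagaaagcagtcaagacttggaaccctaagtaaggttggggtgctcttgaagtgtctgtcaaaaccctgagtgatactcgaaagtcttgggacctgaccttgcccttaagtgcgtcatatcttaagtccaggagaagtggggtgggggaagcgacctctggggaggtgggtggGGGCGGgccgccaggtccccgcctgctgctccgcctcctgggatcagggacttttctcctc
Col18a1, chr10:77166531-77166780, minus strand: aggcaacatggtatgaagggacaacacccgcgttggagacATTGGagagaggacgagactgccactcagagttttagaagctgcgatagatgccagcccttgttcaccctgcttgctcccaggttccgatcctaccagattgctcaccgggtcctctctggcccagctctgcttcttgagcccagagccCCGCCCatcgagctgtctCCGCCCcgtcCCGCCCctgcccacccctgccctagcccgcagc
Col18a1, chr10:77113706-77113955, minus strand: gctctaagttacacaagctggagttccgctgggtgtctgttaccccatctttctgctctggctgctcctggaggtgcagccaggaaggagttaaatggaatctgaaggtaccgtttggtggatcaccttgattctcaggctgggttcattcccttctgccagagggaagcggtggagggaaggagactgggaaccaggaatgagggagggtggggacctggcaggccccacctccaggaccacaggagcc
Col16a1, chr4:130047590-130047839, plus strand: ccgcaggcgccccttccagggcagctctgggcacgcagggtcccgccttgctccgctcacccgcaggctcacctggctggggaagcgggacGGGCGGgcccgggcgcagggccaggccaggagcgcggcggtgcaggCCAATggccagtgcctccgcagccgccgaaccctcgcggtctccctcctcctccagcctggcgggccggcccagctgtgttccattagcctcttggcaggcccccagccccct
Col5a3, chr9:20815068-20815317, minus strand: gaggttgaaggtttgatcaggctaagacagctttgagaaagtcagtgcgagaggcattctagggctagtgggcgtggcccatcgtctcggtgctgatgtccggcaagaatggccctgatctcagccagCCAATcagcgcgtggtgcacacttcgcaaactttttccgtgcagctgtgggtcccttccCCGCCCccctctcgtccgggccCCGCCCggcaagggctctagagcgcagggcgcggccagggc
Col11a1, chr3:114030290-114030539, plus strand: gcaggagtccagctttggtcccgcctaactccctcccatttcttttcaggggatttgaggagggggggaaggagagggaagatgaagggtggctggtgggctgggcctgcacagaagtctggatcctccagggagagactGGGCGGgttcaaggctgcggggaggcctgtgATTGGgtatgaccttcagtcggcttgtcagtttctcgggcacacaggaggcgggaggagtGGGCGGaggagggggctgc
Col19a1, chr1:24587438-24587687, minus strand: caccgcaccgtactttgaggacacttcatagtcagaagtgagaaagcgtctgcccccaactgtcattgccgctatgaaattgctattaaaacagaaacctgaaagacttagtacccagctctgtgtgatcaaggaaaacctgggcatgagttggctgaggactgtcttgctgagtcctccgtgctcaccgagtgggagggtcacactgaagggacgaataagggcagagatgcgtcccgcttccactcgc

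CCAAT was found in 12 of the 35 collagen promoters (34.3%), beside 33.8% of all 32851 promoters of this length. The GC box was found in 19 (54.3%, beside 32.7% of all). The 35 promoters had a median GC content of 59.2%, beside 52.4% over all promoters. The AP-1 letters were found in 1 collagen promoter (2.86%, beside 6.75%), that of Col6a1, and TATAAA in 5 (14.3%, beside 12.4%). Of the 5 genes called higher that have an entry, all 5 held both CCAAT and a GC box at a start, but so did Col11a1, which fell. That count is per gene, unlike the shares above, and how many of all promoters hold both was not counted. The upstream sequence of Col19a1 and the second, downstream start of Col18a1 held none of the 4 motifs. A match describes letters in this window only.

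The most abundant collagens of connective tissue showed no change past the threshold. For Col1a1, the α1 chain of type I collagen, the ratios were −2.84, −3.35, −1.94 and −2.31 in uninjured and −2.87, −2.30, −2.64, −2.36 and −1.63 in injured ganglia (NM_007742, probe on chromosome 11 from 95060800 to 95060859). Both groups spanned more than a log2 unit and overlapped, with uninjured array 2 the lowest of all and injured array 5 the highest. The log2 fold change of 0.25 had a 95% confidence interval of −0.41 to 0.91 (limma adjusted p = 0.593).

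The partner chain Col1a2 read −2.32, −2.65, −1.71 and −2.15 without injury and −2.22, −1.81, −2.16, −1.79 and −1.56 with it (NM_007743, probe on chromosome 6 from 4493505 to 4493564). Its log2 fold change was 0.30 (95% confidence interval −0.11 to 0.72, limma adjusted p = 0.274). Col3a1, whose product forms the fine reticular fibrils of soft tissue, read −2.77, −3.30, −1.94 and −2.54 in uninjured and −2.73, −2.50, −2.47, −2.53 and −1.997 in injured samples (NM_009930, probe on chromosome 1 from 45585395 to 45585454). As for Col1a1 uninjured array 2 was the lowest of all, but here uninjured array 3 was the highest, above all injured arrays. The difference was 0.20 (95% confidence interval −0.33 to 0.72, limma adjusted p = 0.596), and it turned to −0.03 without uninjured array 2. None of these 3 intervals excludes 0 or a rise as large as that of Col5a3.

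The spread between arrays of a group was large for these genes. The pooled SD within groups was 0.54 for Col1a1, which placed it at the 98.5th percentile of all genes tested, where the median gene had 0.12. Col8a2 (0.85, 99.6th percentile), Col8a1 (0.56), Col3a1 (0.42), Col6a2 (0.42), Col6a1 (0.40) and Col14a1 (0.40) were also among the most variable genes of the array. Of the 8 called genes Col2a1 (0.0763), Col18a1 (0.11) and Col5a3 (0.11) varied less than the median gene. Col7a1 (0.14), Col19a1 (0.15), Col4a2 (0.18), Col11a1 (0.20, 82.1st percentile) and Col16a1 (0.27, 92.0th percentile) varied more. Injured array 5 was the highest of its group for 22 of the 38 genes, uninjured array 2 the lowest of its group for 21, and uninjured array 3 the highest for 16. How often these arrays were extreme over all genes was not counted, so the counts do not set the collagens apart.

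**Figure D3:**
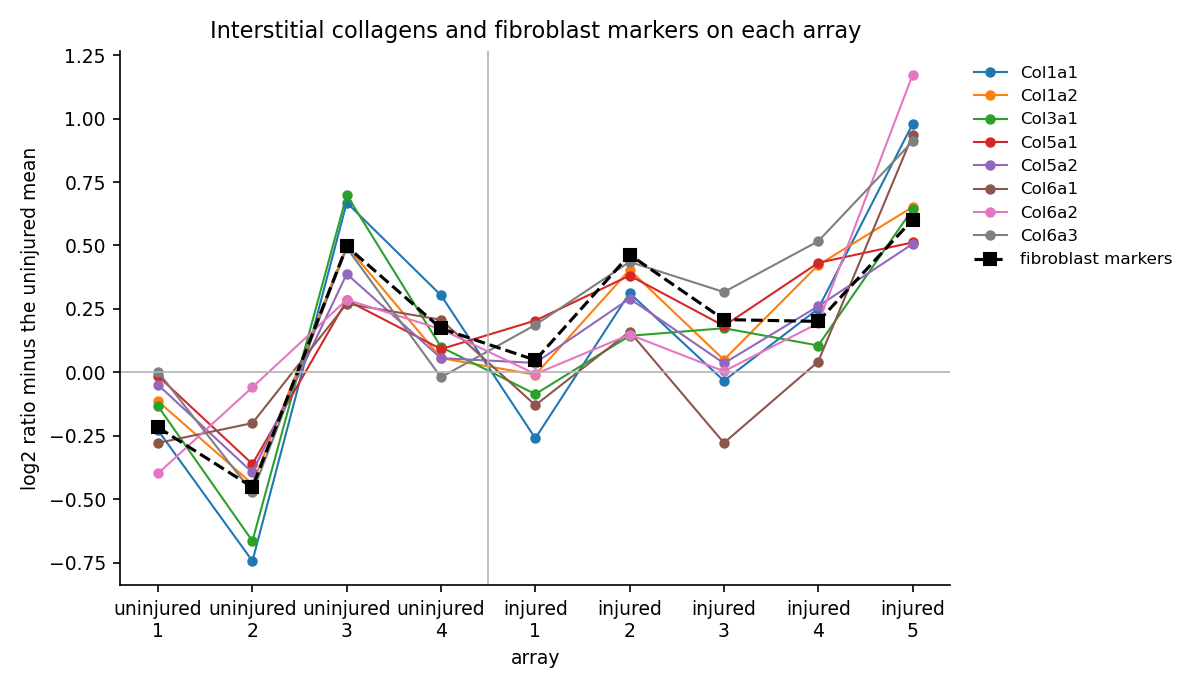
Log2 ratio of 8 interstitial collagen genes on each array minus the mean of the uninjured arrays (y axis, log2 units), with the mean of 5 fibroblast markers as black squares. Within the uninjured group each line is lowest on array 1 or 2 and highest on array 3, and within the injured group highest on array 5, where Col6a2 reached 1.17 above the uninjured mean.

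Several lists of cell type markers were, like these collagens, high on injured array 5 and low on uninjured array 2. For fibroblasts the mean deviation of the 5 markers (Pdgfra, Dpt, Lum, Pi16 and Mfap5) from their uninjured mean was −0.22, −0.45, 0.50 and 0.17 on the uninjured and 0.05, 0.46, 0.21, 0.20 and 0.60 on the injured arrays. Of the 5 markers 0 passed the test in limma, and 0 were under an unadjusted p of 0.05. Their summed Cy5 signal ranged from 8392 to 16118 in uninjured and from 13032 to 22196 in injured ganglia. None of the 5 is at 0. On injured array 5 the mean deviation was also high for markers of macrophages (1.02), satellite glia (0.60), pericytes (0.56) and endothelium (0.45). On uninjured array 2 these 4 lists were at −0.40, −0.13, −0.20 and −0.30. Satellite glia markers were as low on uninjured array 3 (−0.14), where the collagens were high. Schwann cell markers were at −0.06 on injured array 5, the lowest of the injured arrays, and at −0.37 on uninjured array 2. Sensory neuron markers were at 0.26 and −0.07 on the same 2 arrays. Injured array 5 also had the lowest median Cy5 signal (156) and the lowest share of spots above background (71.0%) of the 9 arrays. In summed Cy5 it was the highest of the 9 for satellite glia markers (339484) and the lowest for endothelial markers (4032). Its sums were 13605 for fibroblast, 31496 for macrophage and 9324 for pericyte markers. The part of these cells and of the signal in the collagen levels was not tested. The 8 called collagen genes were called again without injured array 5, where 26% of all genes were called. Without uninjured array 2 it was 7 of them, beside 22.6% of all genes. Leaving out 1 array does not test the cell content of the others.

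In type IV collagen the pair that forms the common network of nearly all basement membranes was measured by 2 probes each. Col4a2 read −1.52, −1.47, −1.26 and −1.25 in uninjured and −1.03, −0.96, −1.24, −0.91 and −0.68 in injured ganglia (NM_009932, probe on chromosome 8 from 11416851 to 11416910). Injured array 3 lay just above the uninjured arrays and the others clearly so. It rose by 0.41 (SE 0.11, limma adjusted p = 0.0174), 0.63 within the shared slide (adjusted p = 0.0851), and 0.51 for the second probe. It missed the threshold under 4 of 24 alternatives.

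Col4a1 read −0.50, −1.20, −0.68 and −0.87 on uninjured and −0.58, −0.52, −0.52, −0.14 and −0.57 on injured arrays (NM_009931, probe on chromosome 8 from 11167020 to 11167079). Uninjured array 1 was level with most injured arrays, and injured array 4 stood above the rest. The difference was 0.35 (SE 0.14, limma adjusted p = 0.0977), with −0.05 within the shared slide and 0.35 for the second probe. The value within the slide is that of the brightest probe alone. On the same slide the second probe read −0.86 on uninjured array 1 and −0.59, −0.52 and −0.32 on injured arrays 1, 2 and 5.

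The chains of the specialised networks of kidney, eye and other sites differed less. Col4a3 was at −0.19 (adjusted p = 0.0609) and was above background on 4 of 4 uninjured but 2 of 5 injured arrays. Col4a4 was at 0.12, and Col4a6 at 0.07. Col4a5, above background on 3 of 4 uninjured and 1 of 5 injured arrays, was at −0.003 (95% confidence interval −0.18 to 0.17). Within the shared slide Col4a3 was at −0.01. None of these 4 genes passed the test.

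Among the other fibrillar genes, Col5a1 (0.34, limma adjusted p = 0.0662) and Col5a2 (0.23, adjusted p = 0.308), the common chains of type V collagen, had positive differences that missed the threshold. Col27a1 and Col24a1, fibrillar genes known from developing cartilage and bone, were at 0.19 and −0.12. Col24a1 was strongly above the reference in both groups, at 3.09 ± 0.46 (SD, n = 4) and 2.97 ± 0.22 (SD, n = 5).

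The 3 chains of type VI collagen, the beaded filaments around cells and basement membranes, were at 0.15 (Col6a1), 0.30 (Col6a2) and 0.47 (Col6a3), with adjusted p between 0.0923 and 0.688. Without injured array 5 Col6a1 was at −0.05, Col6a2 at 0.085 and Col6a3 at 0.36 (adjusted p = 0.157). Without uninjured array 3 Col6a3 was at 0.64 and passed the threshold (limma adjusted p = 0.026).

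Col8a1 and Col8a2, of the short-chain networks best known from the eye's Descemet membrane and from vessel walls, were at 0.52 and 0.07. Col8a2 read 0.48, 0.38, 2.004 and 1.85 on the uninjured arrays and 0.50, 1.65, 0.71, 0.86 and 2.53 on the injured ones. Uninjured arrays 3 and 4 and injured arrays 2 and 5 were high. Injured array 5 lay above and uninjured arrays 1 and 2 below all arrays of the other group, and the groups overlapped in between.

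Of the remaining FACIT genes, Col14a1, which coats fibrils of type I, was at 0.39 (adjusted p = 0.24) and Col20a1 at 0.14. Col9a1, Col9a2 and Col9a3, which cover the fibrils of cartilage, were at 0.03, −0.22 and −0.11, and Col22a1, of tissue junctions such as that of muscle and tendon, was at −0.11. Col15a1, the multiplexin of vessel, nerve and muscle basement membranes, was at 0.19 (adjusted p = 0.153). The transmembrane collagens were at 0.14 (Col23a1), 0.13 (Col17a1, of hemidesmosomes), −0.12 (Col25a1, of neurons) and −0.15 (Col13a1, of the neuromuscular junction). Col28a1, a collagen with von Willebrand factor domains that is prominent around peripheral glia, had a log2 fold change of −0.22 (95% confidence interval −0.45 to −0.0021, adjusted p = 0.133), from 1.89 ± 0.10 to 1.67 ± 0.20.

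Where a gene had several probes, the brightest was used. Of the 7 called genes with more than 1 probe, 6 had all other probes on the same side, the exception being Col2a1.

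Some collagen genes lie side by side in the genome, in an order taken from RefSeq. In 3 of the 6 neighbouring pairs tested both differences had the same sign, and 0 pairs had both genes called. Col4a1 and Col4a2, which are transcribed in opposite directions from adjoining starts, were at 0.35 and 0.41. Col9a1 and Col19a1 were at 0.03 and −0.67, Col4a4 and Col4a3 at 0.12 and −0.19, and Col4a6 and Col4a5 at 0.07 and −0.003. Col3a1 and Col5a2 were at 0.20 and 0.23, and Col6a2 and Col6a1 at 0.30 and 0.15.

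Collagen chains need many enzymes before they assemble, including prolyl and lysyl hydroxylases, the chaperone Serpinh1, propeptide proteases and the crosslinking lysyl oxidases. Of 33 such genes listed 31 were tested, and 7 were higher and 2 lower, with a median log2 fold change of 0.12, beside 11.4% and 14% of all genes. Loxl2, a lysyl oxidase that crosslinks collagen IV among others, had the largest rise. It read −1.53, −2.25, −1.20 and −1.45 in uninjured and −0.32, −0.34, −0.86, −0.23 and −0.08 in injured ganglia. The groups did not overlap, and the log2 fold change was 1.24 (SE 0.21, limma adjusted p = 0.00157), with 1.29 within the shared slide (adjusted p = 0.09).

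Bmp1, the protease that removes the C-propeptides of fibrillar procollagens, read −1.26, −0.85, −0.91 and −0.73 without and −0.24, −0.19, −0.21, −0.10 and 0.72 with injury. Injured array 5 was far above the rest of its group, and all injured arrays exceeded the uninjured ones. Both injured array 5 and uninjured array 1, the lowest of its group, belong to the shared slide. Bmp1 rose by 0.93 (SE 0.19, limma adjusted p = 0.00538) and 1.35 within the shared slide (adjusted p = 0.0497). Plod3, a lysyl hydroxylase and glycosyltransferase, rose by 0.65 (adjusted p = 0.00967), P4hb, the shared subunit of prolyl 4-hydroxylase, by 0.34, P4ha2 by 0.32, Plod1 by 0.32 and the procollagen protease enhancer Pcolce2 by 0.27 (adjusted p between 0.0133 and 0.0378).

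The lower genes were Colgalt2, a collagen galactosyltransferase (Glt25d2 in the files), at −0.47 (adjusted p = 0.00741), and Tll1, a protease related to Bmp1, at −0.43 (adjusted p = 0.00139). The collagen chaperone Serpinh1 was at 0.56 (adjusted p = 0.0809) and the enhancer Pcolce at 0.72 (adjusted p = 0.138), both with wide spread. Within the shared slide only Bmp1 of the 7 higher genes and Tll1 of the 2 lower genes were under the threshold. Without injured arrays 2 and 4, 3 genes were called higher and 2 lower, beside 14.4% of all genes called in either direction.

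**Figure D4:**
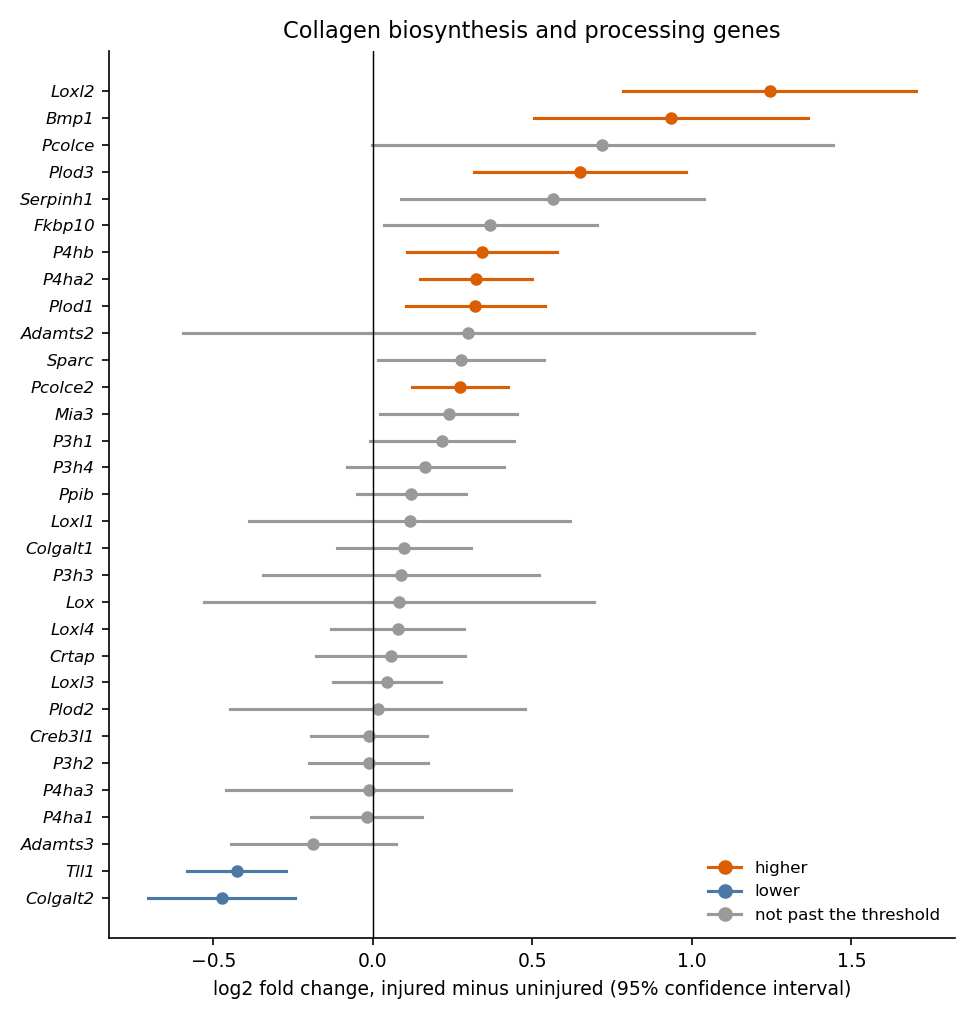
Log2 fold change of 31 collagen biosynthesis and processing genes (x axis, injured minus uninjured, in log2 units), ordered by size, with 95% confidence intervals from limma. Of these, 7 genes from Loxl2 (1.24) to Pcolce2 (0.27) were higher and Tll1 and Colgalt2 were lower. Pcolce and Serpinh1 lie between higher genes but missed the adjusted threshold, although the interval of Serpinh1 (0.09 to 1.04) was all on the higher side.

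Of 15 proteoglycans and receptors that bind collagen, 14 were tested, 1 was higher and 0 were lower, beside 11.4% and 14% of all genes, with a median of 0.19. At an unadjusted limma p under 0.05 the counts were again 1 and 0. The gene called was Ddr2, a receptor tyrosine kinase for fibrillar collagen, at 0.60 (SE 0.20, limma adjusted p = 0.0467). Its groups overlapped, and within the shared slide it was at 1.06 and missed the threshold (adjusted p = 0.0899). Decorin (Dcn), a proteoglycan bound to type I fibrils, was at 0.51 (adjusted p = 0.21), and the lowest of the list, the type I collagen receptor Itga11, was at −0.24 (adjusted p = 0.487).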

How the data were processed

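RNA of 9 DRG samples was measured on 2-colour Agilent mouse arrays against a universal mouse reference. Per the file headers, Agilent Feature Extraction 10.5.1.1 gave each spot's mean intensity, local background and flags, and a log10 ratio made with its own dye normalization. The authors also deposited log2 ratios, made with limma per the labels, which were used here as an alternative. Probe coordinates are those of the files, on mm7. Groups were taken from the labels. No column of another sample was present.

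In R 4.3.3 with limma 3.58.1, spots marked as non-uniform (2 to 26 per array, 0 of them collagen spots) were left out because they pulled the background fit of injured array 2 off. Background was corrected by normexp (offset 50), followed by loess within arrays. Repeated spots were averaged, probes were kept if Cy5 was well above background on 4 or more arrays (31186 of 41174), and the brightest probe stood for each gene. Injured and uninjured arrays were set against each other by the moderated test of limma, with Benjamini-Hochberg adjustment across 21097 genes and a threshold of 0.05. For single probes an exact permutation of the group labels was added, two-sided. The procedure was tested on simulated data. Saturation affected 0 collagen probes used, and the number of arrays limits the precision.

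The collagen genes, their classes and the lists (biosynthesis and processing, proteoglycans and receptors, and markers of fibroblasts, endothelium, pericytes, Schwann cells, satellite glia, macrophages, sensory neurons, skeletal muscle, red blood cells, cartilage and bone, and dividing cells) were chosen with earlier results of these data known. Of 105 list entries 104 were matched to names in the files. Every collagen gene is named, with values on every array for called genes and for Col1a1, Col1a2, Col3a1, Col4a1 and Col4a2. Of the other lists, called genes and the ends of the list are named. The values of Col8a2 by array, and Serpinh1, Pcolce, Dcn, Bglap2 and Sp7, were added after their values were seen. Alternatives changed the background, the spots left out, the normalization, the channel, the filter, the slide term, array weights, the use of probes and the test, and left out each array. Leaving out injured arrays 2 and 4 together was added after the data were seen. Figures were drawn with Python and matplotlib, and promoter sequences are from RefSeq (GRCm38.p6).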

Additional observations from a re-analysis of the deposited data

Results flagged for a closer look

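In 4 of 76 groups of arrays, taken over the 38 collagen genes tested, 1 array stood apart from the rest of its group by Dixon's criterion. Chance marks about 1 in 20 groups in this way. Col6a2, a chain of type VI collagen, was at −0.82 on injured array 5, where the other injured arrays lay between −1.99 and −1.79. Col28a1, the collagen of peripheral glia, was at 1.33 on the same array, with the others between 1.68 and 1.81. Col4a1 was at −0.14 on injured array 4, with the others between −0.58 and −0.52. Col9a1 was at 0.16 on uninjured array 1, with the others between 0.04 and 0.04.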

How the results depend on the processing

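Col7a1, Col16a1 and Col18a1 kept their direction and stayed past the threshold under all 24 alternatives, with log2 fold changes of 0.80 to 0.96, 0.48 to 1.04 and 0.65 to 0.84. With slide as a fixed block, 3 collagen genes were higher and 1 lower, with 0 fibrillar genes called in either direction and 0 type IV genes higher, and the type IV median was −0.012. Of all genes, 632 were then higher and 557 lower, and of the processing genes 1 was higher and 1 lower. With slide as a random block (correlation −0.21 within slides) 12 of the 38 collagen genes were called, beside 35.5% of all genes. Of type IV, 2 were then higher and 1 lower. Under median centring 986 of all genes were higher and 1699 lower, the median of all genes shifted by −0.05, 1 fibrillar, 0 type IV and 3 processing genes were higher. Without injured arrays 2 and 4, an alternative chosen after seeing the data, these were 1375, 1660, 1, 0 and 3. One fibrillar gene was higher (1) with Agilent's log ratio, the authors' values, Cy5 alone and the average of probes, where 2 type IV genes were higher with a median of 0.0203. Col4a3 was called lower, as 1 type IV gene, without background correction, with an offset of 0, with all spots kept, with Agilent's ratio and with the authors' values. The type IV median was 0.19 with all spots kept and 0.23 for probes above background on all arrays, where 1 processing gene was lower. Leaving out 1 array in turn gave 1 to 2 fibrillar genes higher and 0 to 1 type IV genes lower.

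Differences of the brightest probe that were not called changed sign as follows. With slide as a fixed block Col13a1 was at 0.0922, Col22a1 at 0.0898, Col23a1 at −0.0128, Col25a1 at 0.0131, Col4a1 at −0.0535, Col4a6 at −0.0097 and Col9a1 at −0.0588. With all spots kept Col15a1 was at −0.0018, Col4a5 at 0.24 and Col8a2 at −0.0168. With slide as a random block Col24a1 was at 0.0353 and Col8a2 at −0.0741, with Cy5 alone Col25a1 at 0.0882 and Col4a6 at −0.024, with array weights Col3a1 at −0.0163 and Col8a2 at −0.23, and with Agilent's ratio Col28a1 at 0.32. Without injured arrays 2 and 4 Col23a1 was at −0.00587 and Col4a5 at 0.0700. Leaving out each array in turn gave ranges of −0.30 to 0.0786 for Col24a1, −0.0255 to 0.43 for Col3a1, −0.0509 to 0.031 for Col4a5, −0.0511 to 0.25 for Col6a1 and −0.25 to 0.35 for Col8a2. The causes were not tested. No paired analysis was possible because neither animals nor replicate numbers are given in the labels.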

Other observations

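Markers of the cell types that a ganglion sample can hold were examined in the same fit, in which 25.4% of all genes were called. Of 5 macrophage markers, 1 was higher after injury, Aif1, the calcium-binding protein IBA1, by 0.90 (limma adjusted p = 0.00763, and 0.115 within the shared slide), and the list's mean deviation was highest on injured arrays 2 (1.03) and 5 (1.02). Of 4 satellite glia markers, 1 was higher, the glutamine synthetase gene Glul, by 0.78 (adjusted p = 0.000132, and 0.0398 within the shared slide). Of 5 endothelial markers, 1 was higher, the angiopoietin receptor Tek, by 0.47 (adjusted p = 0.0252, and 0.244 within the shared slide). None of 4 pericyte, 5 Schwann cell, 6 sensory neuron, 7 skeletal muscle, 3 red blood cell or 4 dividing cell markers passed in limma. At an unadjusted p under 0.05 there were 2 Schwann cell (Mag and Prx), 1 sensory neuron (Scn10a), 1 skeletal muscle (Tnnt3) and 2 red blood cell markers (Alas2 and Hba-a1), and 0 of pericytes or dividing cells. How many of all genes fall under that unadjusted cut was not counted. The red blood cell markers had mean deviations of 1.19 and 1.22 on injured arrays 2 and 5, and −0.15 to 0.49 on the other injured arrays.

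Cartilage and bone markers were included because types II, IX and XI collagen are cartilage proteins. Of 8 listed, 6 were tested. Sox9, a transcription factor of cartilage that glia also express, was higher by 1.36 (limma adjusted p = 0.000187, and 0.0466 within the shared slide). Comp, a cartilage matrix protein, was lower by a log2 fold change of −0.75 (adjusted p = 0.0166), and the bone sialoprotein gene Ibsp by −0.35 (adjusted p = 0.0299), and both overlapped between the groups. Within the shared slide both calls were lost, with Comp at −0.24 (adjusted p = 0.705) and Ibsp at −0.36 (adjusted p = 0.343). Aggrecan, listed in the files as Agc1, was at −0.17 (adjusted p = 0.141). The bone markers Bglap2, matched under the older name Bglap1, and Sp7 were at 0.34 (adjusted p = 0.127) and 0.08 (adjusted p = 0.538). At an unadjusted limma p under 0.05, 2 markers of this list were higher (Sox9 and Bglap2) and 2 were lower (Comp and Ibsp). The part of these cells in the fall of Col11a1 or the small rise of Col2a1 was not tested.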
